A study of Danio rerio with 40 samples.

Results

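Most of the genes described here encode proteins of the blood plasma: complement, clotting and fibrinolysis factors, serine protease inhibitors (serpins) and carrier proteins. They were picked from the deposited gene count table by a symbol pattern that takes the complement genes c3 to c9, cfb and cfh with their variants, clotting factors written as f and a number, the fibrinogen chains, every serpin, and a short set of named genes (ahsg, tfa, vtna, vtnb, ambpl, hpx, itih2, plg, kng1 and cp). The pattern found 50 of the 14267 genes, carrying 49 distinct symbols. They comprised 12 complement genes, 12 clotting and fibrinolysis genes, 16 serpins and 8 carriers. The other 2, f2r and f11r, encode a thrombin receptor and a cell junction molecule, which are not plasma proteins. Some members counted under the roles are not plasma proteins either. Among them f3b encodes a membrane protein, and the products of the serpinb genes stay mostly inside cells in mammals.

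RNA was sequenced from whole zebrafish of the Segrest wild-type (SWT) strain, in 8 groups of 5 libraries. In the D3 groups the embryo medium held 300 pM 1α,25(OH)2D3, the hormonal form of vitamin D, added in ethanol at 24 h after fertilization and renewed daily, and animals were collected at 2, 4, 6 and 7 days post fertilization (dpf). The vehicle groups received ethanol alone and were collected at the same ages, and both arms were kept in 0.003% 1-phenyl-2-thiourea, which blocks pigment. Each library came from a pool of 25 to 30 animals of unstated sex, and the labels also mention a separate 24 h exposure of larvae at 6 dpf without tying it to any library, so the length of exposure is not certain for the oldest groups.

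In vertebrates most circulating complement, clotting and carrier proteins are made by hepatocytes and secreted into the blood. Complement is a protease cascade that ends in pores on microbial membranes, and clotting is a protease cascade in which thrombin turns fibrinogen into fibrin. Serpins trap proteases of both cascades, and carriers such as transferrin, hemopexin and ceruloplasmin move iron, heme and copper. Over the ages sampled, zebrafish larvae use up their yolk and become able to feed.

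Library totals lay between 67235165 and 214502251 counts, and the members took 0.119 to 0.425% of them. One library in each group stood apart by depth, replicate 1 in every vehicle group and replicate 5 in every D3 group: these 8 had at most 81298182 counts, and the other 32 at least 106850887. Calls of D3 against vehicle that change without them are given both ways. No library appeared to be deposited more than once: in 80 within-group pairs the counts differed with a chi-square of at least 21.5 for each degree of freedom. As a check of the labels, cyp24a1, the enzyme that inactivates the hormone, stood at 8.52 to 28.2 CPM in D3 and 1.64 to 3.89 CPM in vehicle embryos at 2 dpf, and at 1087 to 1892 CPM in D3 and 207 to 388 CPM in vehicle larvae at 7 dpf. CPM, the unit of level used throughout, is a gene's count divided by its library's depth after TMM scaling over all 40 libraries, a scale that is not per length and so serves no comparison of levels between genes. The labels do not say whether pools of a group came from separate clutches, so p-values measure the spread between these libraries, part of which may be technical.

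Many members were lower in D3 larvae at 6 and 7 dpf. No member passed the test at 2 or 4 dpf, where 0.00757% and 0% of all genes tested did. A fit with a replicate block, described below, called 7 members at 4 dpf, where it called 9.36% of all genes. At 6 dpf, 20 of the 50 members fell and 0 rose, where 6.32% of all 13505 genes tested fell and 4.37% rose. At an unadjusted p under 0.05 there were 34 members (24.5% of all genes). DESeq2 called 28 members lower and 1, c6, higher, where it called 1237 of the 13505 genes lower and 965 higher. At 7 dpf, 34 members fell and 5 rose, against 14.2% and 14.6% of 13434 genes. The members' median log2 fold change was -0.39 at 6 dpf and -0.55 at 7 dpf, and that of all genes tested was 0.02 and 0.01 at these ages. These calls are from edgeR's quasi-likelihood test with Benjamini-Hochberg adjustment over all genes tested, at a threshold of 0.05. In whole animals, fewer cells of a type and less RNA per cell cannot be told apart.

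Of the 20 members that fell at 6 dpf, 19 also fell at 7 dpf, and the exception was hpx. A further 15 fell at 7 dpf only by this count, and 10 members passed at neither age. Without the lowest-depth libraries 33 members fell and 1 rose at 6 dpf (26.1% of all genes were then called, against 10.7% with them), and all 20 were among them. Those gained were ambpl, c8a, cfhl3, f10, fga, fgb, itih2, serpina1l, serpinb1, serpinc1, serpinf1 and both serpini1 genes, lower, and c6, higher. That setting gave 36 lower and 7 higher members at 7 dpf, where 56.6% of all genes were called. Every D3 library lay below every vehicle library for 16 members at 6 dpf, where 6.63% of all genes did so, and for 26 members at 7 dpf, where 9.96% did so. The reverse, every D3 library above every vehicle library, held for 3 members at 7 dpf and 8.16% of all genes.

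**Figure D1:**
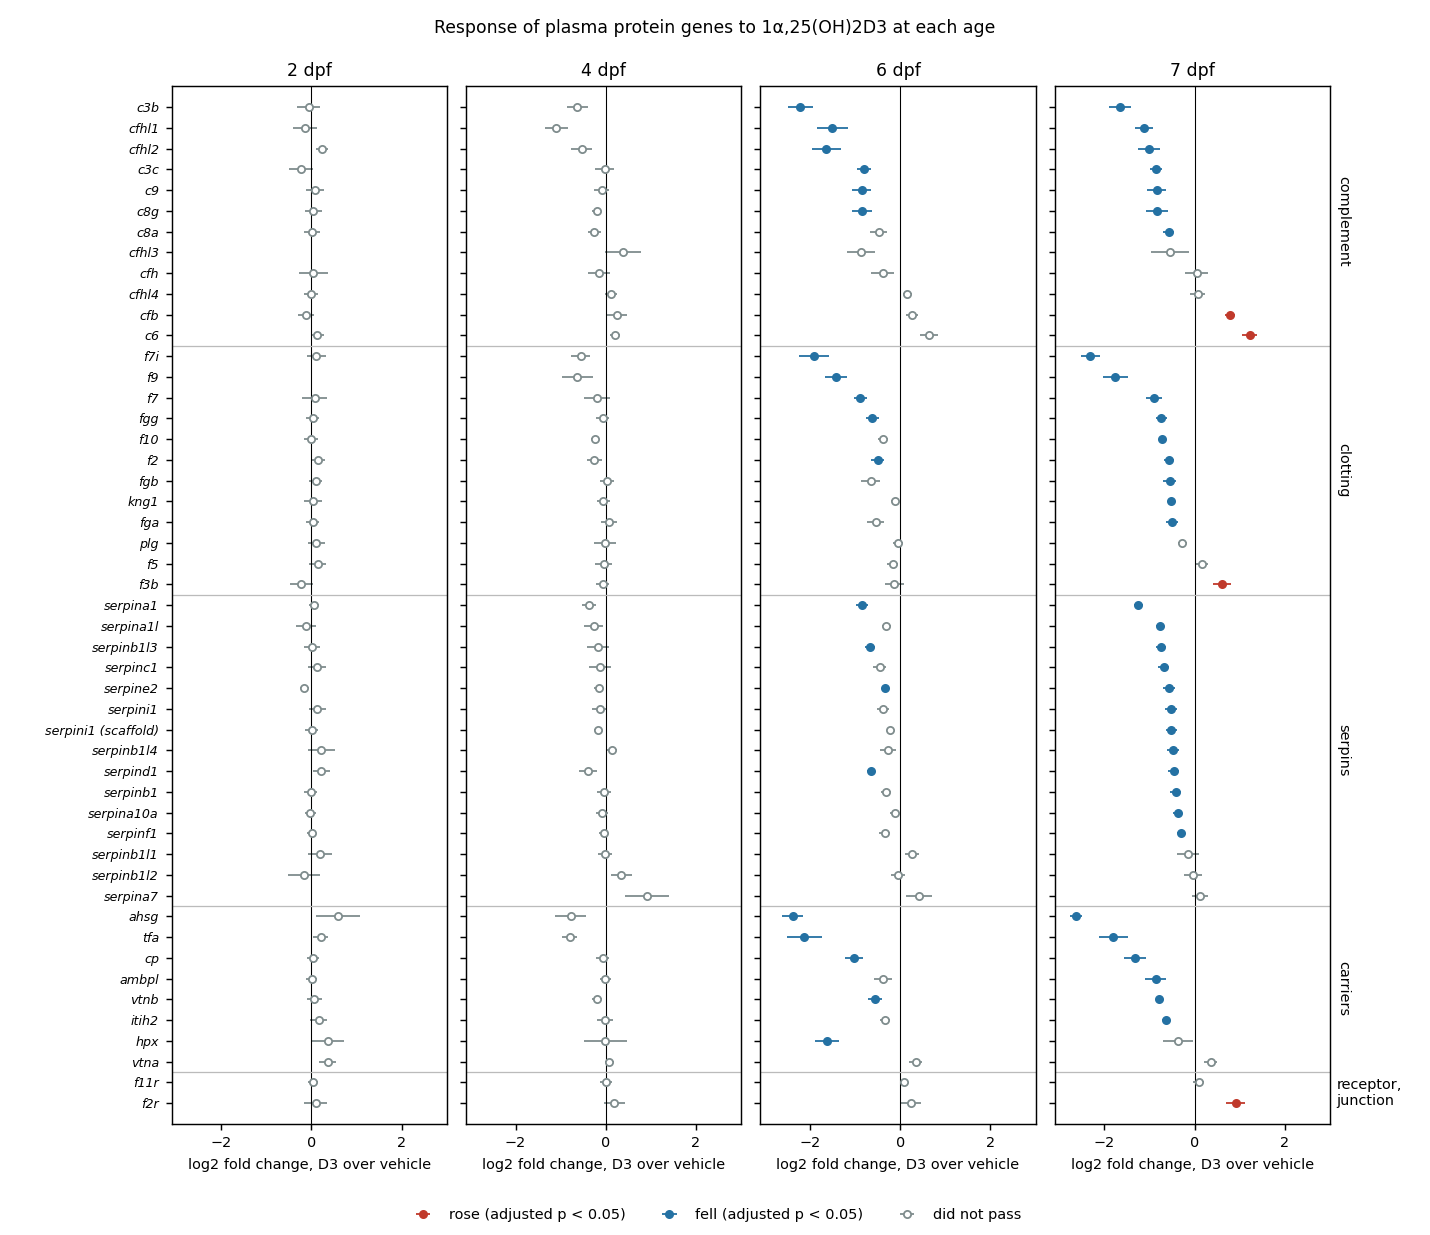
Log2 fold change of D3 over vehicle (x axis, with its standard error as a bar) for 49 members (rows, grouped by role) at 2, 4, 6 and 7 dpf (panels); filled points passed the test. The 20 filled points at 6 dpf all lie left of 0, and at 7 dpf filled points lie on both sides of it.

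The difference in summed level was spread unevenly over the roles. Carriers as a class summed to 572 ± 243 CPM in D3 and 1556 ± 277 CPM in vehicle larvae at 6 dpf (mean ± SD, n = 5 each), and to 363 ± 118 CPM in D3 and 905 ± 258 CPM in vehicle at 7 dpf. At 6 dpf tfa was most of that sum in vehicle larvae and the lesser part of it in D3 larvae. At 7 dpf tfa was the lesser part in D3 larvae, and in vehicle larvae it was most of the sum only in replicate 1, the lowest-depth library. Without tfa the carriers held 231 ± 65.9 CPM in D3 and 441 ± 34.5 CPM in vehicle larvae at 7 dpf. Serpins summed to 657 ± 24.6 CPM in D3 and 1025 ± 60.9 CPM in vehicle larvae at 7 dpf, and their libraries did not overlap. Clotting genes summed to 554 ± 76.1 CPM in D3 and 785 ± 21.5 CPM in vehicle at that age, also without overlap. The complement sum showed the smallest gap at 7 dpf, 313 ± 55.3 CPM in D3 and 371 ± 62.1 CPM in vehicle, and its libraries overlapped. At 6 dpf it was 327 ± 51.0 CPM in D3 and 472 ± 37.3 CPM in vehicle larvae, without overlap. Serpins at 6 dpf summed to 713 ± 43.4 CPM in D3 and 958 ± 67.5 CPM in vehicle, also without overlap. Clotting genes at 6 dpf had 603 ± 110 CPM in D3 and 819 ± 57.7 CPM in vehicle, and their libraries overlapped. These sums are a description, without a test, and the most counted genes weigh most in them. The members' median log2 fold changes ordered the roles otherwise. At 6 dpf the median was -0.82 for complement, -0.79 for carriers, -0.52 for clotting genes and -0.31 for serpins. At 7 dpf it was -0.70 for complement, -0.82 for carriers, -0.56 for clotting genes and -0.47 for serpins.

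**Figure D2:**
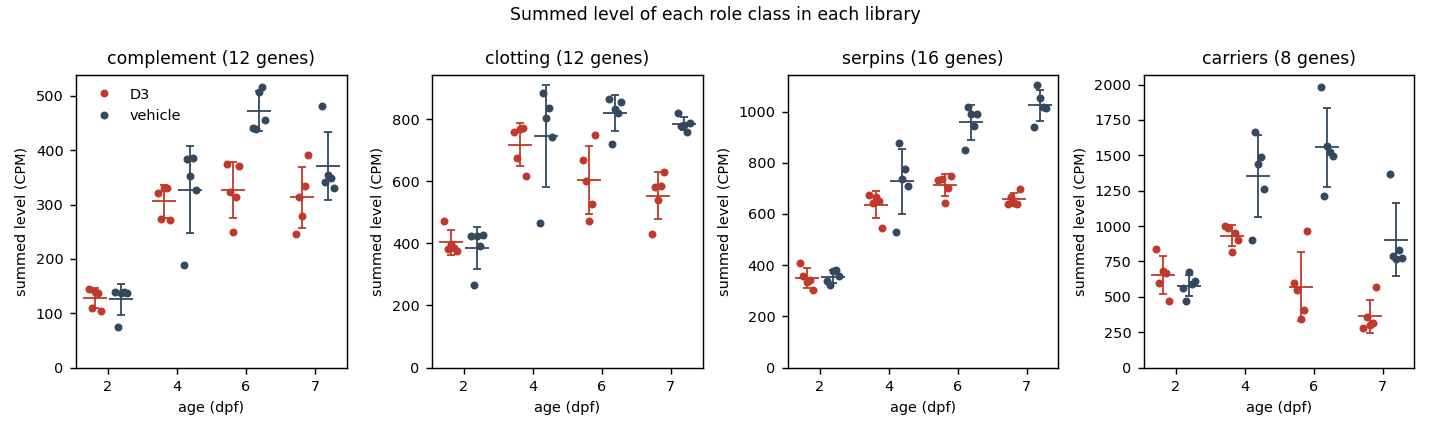
Summed level in CPM (y axis) of the genes of each role class by age in dpf (x axis), 1 point per library, D3 red and left, vehicle blue and right, bars the mean and SD. D3 and vehicle points mix at 2 dpf, and at 7 dpf they are separate for clotting genes, serpins and carriers and mixed for complement.

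Among the carriers, 5 of 8 fell at 6 dpf and 6 at 7 dpf, where 6.32% and 14.2% of all genes tested fell. The gene with the largest drop at both ages was ahsg (fetuin A, chromosome 22), whose product in mammals is a plasma glycoprotein that binds calcium phosphate. At 6 dpf ahsg had 4.66, 3.98, 3.60, 4.90 and 8.995 CPM in D3 libraries, against 22.6, 31.8, 24.9, 28.9 and 28.5 CPM in vehicle libraries. No D3 library came near the vehicle range, and the highest of the D3 values was in the lowest-depth library. Its log2 fold change was -2.38 ± 0.23 (SE), adjusted p = 0.00012 by edgeR with Benjamini-Hochberg adjustment. At 7 dpf the ahsg values were 3.91, 4.48, 5.67, 5.92 and 5.75 CPM in D3 libraries, against 32.9, 33.0, 28.3, 34.3 and 31.4 CPM in vehicle libraries. The fold change there was -2.63 ± 0.13 (SE), adjusted p = 1.9e-07 (edgeR), with the D3 libraries close together and again far below vehicle.

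Transferrin (tfa, chromosome 2), the iron carrier, followed. At 6 dpf tfa stood at 266, 215, 104, 103 and 474 CPM in D3 libraries, against 1417, 722, 1039, 979.6 and 986 CPM in vehicle libraries. The groups did not overlap, although the D3 values spread widely with the lowest-depth library on top. The edgeR log2 fold change was -2.13 ± 0.39 (SE), adjusted p = 0.0051. At 7 dpf tfa measured 76.9, 136, 109.9, 117 and 220.1 CPM in D3 libraries, against 865, 347, 358, 394 and 356 CPM in vehicle libraries, a log2 difference of -1.81 ± 0.32 (SE), adjusted p = 0.0018. Vehicle replicate 1, the lowest-depth library, was far above the other vehicle libraries there, and the groups stayed apart without it.

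Ceruloplasmin (cp) carries copper and oxidizes iron. At 7 dpf cp had 49.6, 70.9, 46.9, 46.6 and 114 CPM in D3 libraries, against 207, 154, 144, 165 and 156 CPM in vehicle libraries, and at 6 dpf it averaged 106 ± 37.0 CPM in D3 and 218 ± 26.3 CPM in vehicle larvae (SD, n = 5 each). The edgeR log2 fold changes were -1.02 ± 0.21 (SE), adjusted p = 0.0088, at 6 dpf and -1.33 ± 0.24 (SE), adjusted p = 0.0019, at 7 dpf, and the libraries did not overlap at either age. Hemopexin (hpx), which binds free heme, was scarce. At 6 dpf hpx had 0.583, 0.485, 0.601, 0.463 and 0.783 CPM in D3 libraries, against 1.97, 0.796, 1.92, 1.80 and 2.44 CPM in vehicle libraries, a log2 fold change of -1.62 ± 0.27 (SE), adjusted p = 0.003 (edgeR). At 7 dpf the hpx values were 0.677, 0.445, 0.508, 0.396 and 1.41 CPM in D3 libraries, against 0.621, 0.923, 0.876, 1.16 and 0.777 CPM in vehicle libraries, and they overlapped, D3 replicate 5 holding the highest value of all 10. The test did not pass at 7 dpf (-0.37 ± 0.34 (SE), adjusted p = 0.44), and without the lowest-depth libraries it did, at -0.87 ± 0.20 (SE) with adjusted p = 0.0033 by edgeR.

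Vitronectin is an adhesive plasma protein that binds cells to surfaces, and zebrafish has a pair of genes for it. At 7 dpf vtnb had 17.9, 16.7, 16.4, 17.5 and 18.7 CPM in D3 libraries, against 32.2, 31.5, 29.5, 30.4 and 27.9 CPM in vehicle libraries, without overlap and with a log2 fold change of -0.79 ± 0.07 (SE), adjusted p = 1.9e-05 (edgeR). At 6 dpf the vtnb fold change was -0.56 ± 0.15 (SE), adjusted p = 0.032, a call lost in 7 of 17 alternative settings, 7 leave-one-out fits whose adjusted p reached 0.087 at most. The other copy, vtna, did not pass at either age, with 0.34 ± 0.15 at 6 dpf and 0.36 ± 0.14 at 7 dpf on the log2 scale, and it rose at 7 dpf without the lowest-depth libraries (0.35 ± 0.07, SE, adjusted p = 0.00075 by edgeR). The inter-alpha-trypsin inhibitor heavy chain itih2, which binds hyaluronan, had 54.9, 56.2, 50.2, 52.5 and 65.4 CPM in D3 libraries, against 80.9, 95.1, 92.3, 82.6 and 85.0 CPM in vehicle libraries at 7 dpf. Its groups did not overlap, and edgeR gave -0.64 ± 0.09 (SE), adjusted p = 0.00033, while at 6 dpf it did not pass (-0.33 ± 0.11 (SE), adjusted p = 0.075), except without the lowest-depth libraries (-0.43 ± 0.10, adjusted p = 0.0091, edgeR). The alpha-1-microglobulin and bikunin precursor gene ambpl passed at 7 dpf, at -0.86 ± 0.23 (SE), adjusted p = 0.016 (edgeR), where its lowest-depth D3 library lay within the vehicle range, and at 6 dpf without the lowest-depth libraries (-0.57 ± 0.09, adjusted p = 0.00078), not with them.

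Of the 12 complement genes, 6 fell and 0 rose at 6 dpf, where 6.32% of all genes tested fell and 4.37% rose. At 7 dpf 7 fell and 2 rose, where 14.2% of all genes fell and 14.6% rose. The central component C3 is counted here under c3b and c3c, which lie side by side on chromosome 1; in the deposited exon table, whose scaffold names carry the prefix of the Zv9 assembly, the named exons of c3b span positions 56787399 to 56808425 and those of c3c 56828341 to 56861578. At 6 dpf c3b had 24.2, 16.9, 8.57, 12.0 and 26.9 CPM in D3 libraries, against 68.9, 67.9, 97.6, 91.2 and 88.5 CPM in vehicle libraries. All D3 libraries were under the lowest vehicle library by a wide margin, at a log2 fold change of -2.21 ± 0.28 (SE), adjusted p = 0.00052 (edgeR). At 7 dpf c3b had 7.36, 12.3, 10.5, 12.3 and 19.4 CPM in D3 libraries, against 59.0, 30.2, 36.9, 37.9 and 31.1 CPM in vehicle libraries, again without overlap, at -1.65 ± 0.25 (SE), adjusted p = 0.00067.

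Its neighbour c3c fell less. At 6 dpf c3c measured 83.4, 69.9, 50.2, 56.8 and 53.6 CPM in D3 libraries, against 81.4, 127, 124, 121 and 97.3 CPM in vehicle libraries, where D3 replicate 1 was just above vehicle replicate 1, and at 7 dpf 45.6, 59.8, 53.1, 66.9 and 67.5 CPM in D3 libraries, against 139, 97.1, 103, 97.6 and 98.9 CPM in vehicle libraries, without overlap. The edgeR log2 fold changes of c3c were -0.80 ± 0.16 (SE), adjusted p = 0.0074, at 6 dpf and -0.86 ± 0.14 (SE), adjusted p = 0.0008, at 7 dpf. Copies as alike as these may share reads in the authors' counting, so the values of each c3 gene are uncertain.

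The factor H family restrains the alternative pathway, and its 5 genes lie on chromosome 22. Of these, cfhl1 had 0.542, 0.491, 0.578, 0.608 and 0.586 CPM in D3 libraries, against 1.84, 1.02, 1.15, 1.05 and 1.12 CPM in vehicle libraries at 7 dpf, and cfhl2 had 0.752, 1.32, 0.734, 0.95 and 1.52 CPM in D3 libraries, against 3.12, 1.85, 1.98, 2.05 and 1.63 CPM in vehicle libraries. Neither overlapped, and edgeR gave -1.12 ± 0.19 (SE), adjusted p = 0.0015, for cfhl1 and -1.01 ± 0.25 (SE), adjusted p = 0.01, for cfhl2. At 6 dpf the log2 fold changes were -1.504 ± 0.35 for cfhl1 and -1.63 ± 0.33 for cfhl2 (SE), both past the test, that of cfhl1 lost in 2 leave-one-out fits (adjusted p up to 0.056, edgeR). At 7 dpf cfhl4 had 55.8, 56.5, 48.2, 55.4 and 96.1 CPM in D3 libraries, against 71.0, 57.4, 58.5, 56.4 and 55.1 CPM in vehicle libraries. Its groups overlapped, with 0.16 ± 0.11 at 6 dpf and 0.07 ± 0.17 at 7 dpf on the log2 scale, and neither it nor cfh nor cfhl3 passed at either age, although cfhl3 did at 6 dpf without the lowest-depth libraries (-0.93 ± 0.30, SE, adjusted p = 0.043 by edgeR).

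The members that assemble the membrane pore did not move as one. C9 (c9) forms the ring of the pore, and c9 averaged 30.8 ± 9.88 CPM in D3 and 55.4 ± 11.2 CPM in vehicle larvae at 7 dpf (SD, n = 5 each), a log2 fold change of -0.84 ± 0.20 (SE), adjusted p = 0.0092 (edgeR). The genes for the C8 chains, c8a and c8g, changed by -0.57 ± 0.13 and -0.83 ± 0.24 on the log2 scale at 7 dpf, both past the test, that of c8g lost in 4 leave-one-out fits (adjusted p up to 0.066, edgeR). At 6 dpf c9 and c8g also fell (adjusted p = 0.027 and 0.028, edgeR). These calls were lost in 8 and 5 of 17 alternative settings, with adjusted p up to 0.081 and 0.079. In contrast, c6, which joins the complex earlier, had 26.3, 35.6, 32.0, 30.1 and 16.7 CPM in D3 libraries, against 12.9, 11.3, 12.3, 10.9 and 13.4 CPM in vehicle libraries at 7 dpf. All D3 libraries were above all vehicle libraries, the lowest-depth one least, and the log2 fold change was 1.22 ± 0.17 (SE), adjusted p = 0.00038 (edgeR). At 6 dpf c6 did not pass (0.64 ± 0.21 (SE), adjusted p = 0.07, edgeR), where its lowest-depth D3 library had 12.0 CPM and the other 4 had 25.0 to 28.5 CPM. Without the lowest-depth libraries c6 was the 1 member that rose at 6 dpf.

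Factor B (cfb), the protease of the alternative pathway, also rose at 7 dpf, with 60.7, 80.7, 71.4, 91.1 and 77.7 CPM in D3 libraries, against 52.2, 41.8, 47.1, 43.7 and 37.6 CPM in vehicle libraries. The groups were separate, and edgeR gave 0.79 ± 0.12 (SE), adjusted p = 0.00062. At 6 dpf cfb had 78.9, 65.6, 54.3, 69.8 and 51.0 CPM in D3 libraries, against 43.8, 48.4, 63.6, 63.5 and 49.3 CPM in vehicle libraries, with overlapping groups and 0.27 ± 0.14 (SE), adjusted p = 0.26.

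**Figure D3:**
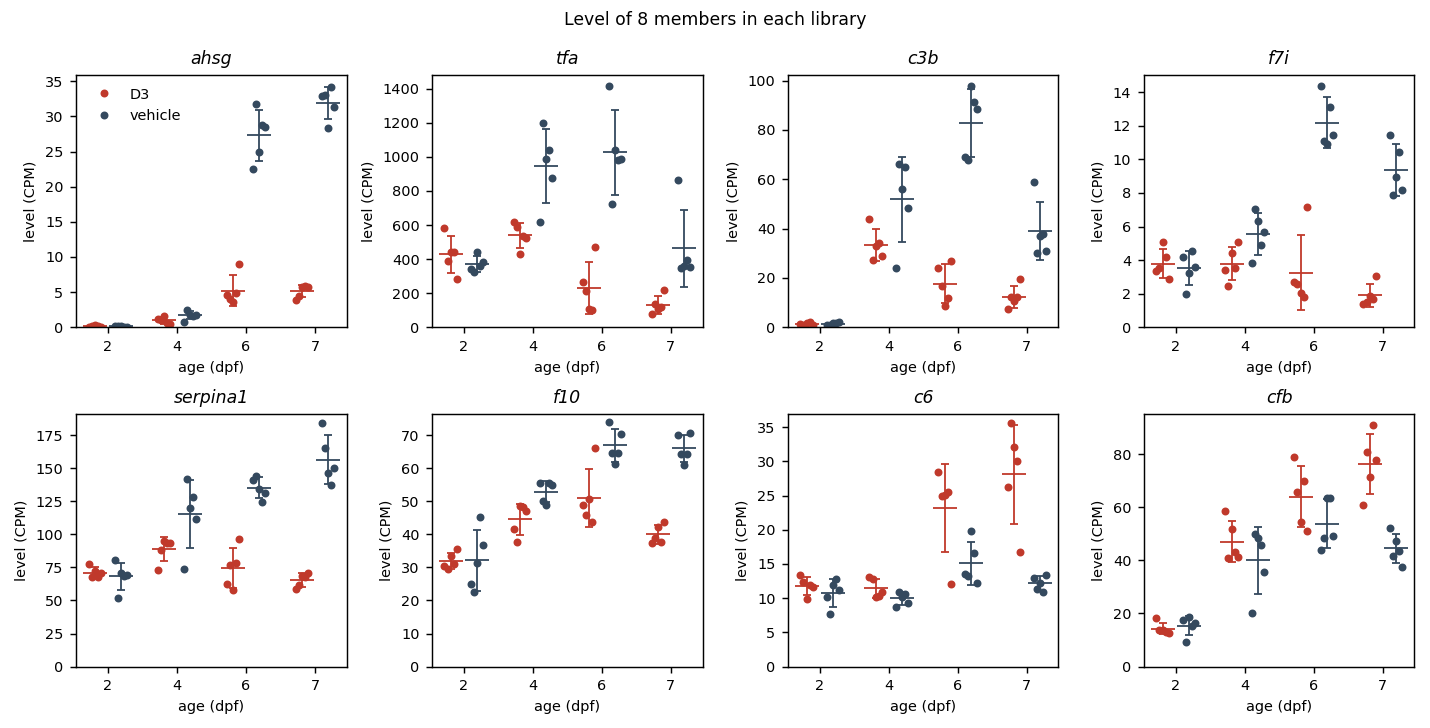
Level in CPM (y axes start at 0) of 8 members by age in dpf, 1 point per library, D3 red and left, vehicle blue and right, bars the mean and SD. At 7 dpf all D3 points lie below all vehicle points for ahsg, tfa, c3b, f7i, serpina1 and f10, and above them for c6 and cfb.

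Of the 12 clotting genes, 5 fell at 6 dpf, where 6.32% of all genes tested fell. At 7 dpf 9 fell and 1 rose, where 14.2% of all genes fell and 14.6% rose. The steepest was f7i, a zebrafish relative of factor VII that lacks a working catalytic site and is described in that species as an inhibitor of tissue factor driven clotting. It lies between f7 and f10 on chromosome 1. At 6 dpf f7i had 2.70, 2.57, 2.03, 1.80 and 7.18 CPM in D3 libraries, against 14.4, 11.1, 10.9, 13.1 and 11.4 CPM in vehicle libraries. Of the D3 libraries 4 were at or below 2.70 CPM, and the lowest-depth one was far above them yet still below all vehicle libraries. The log2 fold change was -1.92 ± 0.33 (SE), adjusted p = 0.0039 (edgeR). At 7 dpf f7i had 1.36, 1.52, 1.88, 1.69 and 3.05 CPM in D3 libraries, against 11.5, 7.88, 8.92, 10.4 and 8.17 CPM in vehicle libraries, a clear separation, at -2.31 ± 0.21 (SE), adjusted p = 1.9e-05.

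Factor VII itself (f7), which starts clotting together with tissue factor, had 17.9, 15.0, 13.7, 16.1 and 22.9 CPM in D3 libraries, against 29.6, 27.1, 31.1, 33.7 and 38.3 CPM in vehicle libraries at 6 dpf. At 7 dpf its values were 11.6, 12.1, 14.4, 16.8 and 23.2 CPM in D3 libraries, against 30.1, 28.5, 27.9, 33.2 and 26.8 CPM in vehicle libraries. The groups did not overlap at either age, and edgeR gave -0.89 ± 0.14 (SE), adjusted p = 0.0022, at 6 dpf and -0.90 ± 0.17 (SE), adjusted p = 0.0025, at 7 dpf. Factor IX (f9), the factor lacking in hemophilia B in humans, was at low counts, with 0.215, 0.157, 0.219, 0.252 and 0.359 CPM in D3 libraries, against 0.409, 0.889, 0.803, 0.923 and 0.951 CPM in vehicle libraries at 7 dpf. Even so the groups were apart, vehicle replicate 1 nearest to the D3 range, and the log2 fold change was -1.75 ± 0.28 (SE), adjusted p = 0.0009, after -1.42 ± 0.24 (SE), adjusted p = 0.0031, at 6 dpf (edgeR). Factor X (f10), on which both arms of the cascade converge, had 37.3, 38.9, 42.2, 37.8 and 43.8 CPM in D3 libraries, against 70.0, 64.2, 60.9, 64.3 and 70.7 CPM in vehicle libraries at 7 dpf. Those libraries were well separated, at -0.72 ± 0.07 (SE), adjusted p = 4.6e-05, whereas f10 did not pass at 6 dpf (-0.38 ± 0.11 (SE), adjusted p = 0.058, edgeR), but did without the lowest-depth libraries (-0.46 ± 0.07, adjusted p = 0.00062). Prothrombin (f2) fell at both ages, with log2 fold changes of -0.49 ± 0.14 at 6 dpf and -0.57 ± 0.11 at 7 dpf (SE); the call at 6 dpf (adjusted p = 0.049, edgeR) was lost in 10 of 17 alternative settings, with adjusted p up to 0.13.

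The fibrinogen chains fga, fgb and fgg are secreted as 1 complex. At 7 dpf fga had 65.3, 116, 89.2, 98.5 and 98.0 CPM in D3 libraries, against 133, 136, 139, 127 and 129.6 CPM in vehicle libraries, fully separate, at -0.50 ± 0.13 (SE), adjusted p = 0.012 (edgeR). At 6 dpf fga had 129, 104, 66.4, 65.8 and 121 CPM in D3 libraries, against 148, 118, 157, 147 and 145 CPM in vehicle libraries, where D3 replicates 1 and 5 reached the vehicle range, and it did not pass (-0.54 ± 0.19 (SE), adjusted p = 0.092). The fgb and fgg chains changed by -0.55 ± 0.15 and -0.73 ± 0.12 at 7 dpf on the log2 scale (SE), both past the test, and at 6 dpf fgg passed (-0.62 ± 0.14) while fgb gave -0.65 ± 0.20 and did not. Both fga and fgb passed at 6 dpf without the lowest-depth libraries, with adjusted p = 0.040 and 0.012 by edgeR. Kininogen (kng1), the precursor of bradykinin, had 32.3, 33.8, 35.8, 36.0 and 35.3 CPM in D3 libraries, against 49.0, 50.9, 51.0, 47.6 and 51.0 CPM in vehicle libraries at 7 dpf. The spread within each group was small, and edgeR gave -0.52 ± 0.06 (SE), adjusted p = 0.00012, against -0.11 ± 0.09 (SE), adjusted p = 0.47, at 6 dpf.

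A few clotting genes behaved otherwise. Plasminogen (plg), the zymogen of the protease that dissolves fibrin, had 102, 116, 121, 139 and 146 CPM in D3 libraries, against 156, 151, 146, 145 and 158 CPM in vehicle libraries at 7 dpf. The groups came close, with D3 replicate 5 just above the lowest vehicle value, and plg did not pass (-0.27 ± 0.10 (SE), adjusted p = 0.056, edgeR). It fell without the lowest-depth libraries, at -0.32 ± 0.08 (SE) with adjusted p = 0.0061. Factor V (f5), a cofactor of factor X, gave -0.16 ± 0.12 at 6 dpf and 0.17 ± 0.14 at 7 dpf on the log2 scale and passed at neither age. Tissue factor (f3b), the membrane protein on cells outside the blood stream that starts clotting, had 6.81, 8.78, 7.82, 9.08 and 6.97 CPM in D3 libraries, against 7.33, 3.26, 4.07, 4.98 and 6.53 CPM in vehicle libraries at 7 dpf. These overlapped, since the lowest-depth vehicle library was above 2 of the D3 libraries. The rise, 0.61 ± 0.20 (SE), adjusted p = 0.041 by edgeR, was lost in 8 of 17 alternative settings, where adjusted p reached 0.11.

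Of the 16 serpins, 4 fell at 6 dpf and 12 fell at 7 dpf, where 6.32% and 14.2% of all genes tested fell. The class holds secreted protease inhibitors and also the serpinb genes, whose products stay mostly inside cells in mammals. Alpha-1-antitrypsin (serpina1, chromosome 20), which inhibits neutrophil elastase, had 62.6, 77.1, 57.9, 78.7 and 96.9 CPM in D3 libraries, against 141, 145, 134, 125 and 132 CPM in vehicle libraries at 6 dpf. At 7 dpf its values were 58.4, 61.6, 68.9, 67.9 and 70.7 CPM in D3 libraries, against 185, 165, 146, 137 and 150.1 CPM in vehicle libraries. Both sets were free of overlap, and edgeR gave -0.84 ± 0.13 (SE), adjusted p = 0.0017, at 6 dpf and -1.25 ± 0.10 (SE), adjusted p = 6.0e-06, at 7 dpf. The adjacent copy serpina1l had 101, 121, 132, 119 and 128 CPM in D3 libraries, against 175, 229.7, 201, 204 and 216 CPM in vehicle libraries at 7 dpf. It fell at that age (-0.76 ± 0.09 (SE), adjusted p = 0.00017) and did not pass at 6 dpf (-0.31 ± 0.10 (SE), adjusted p = 0.073, edgeR), but did without the lowest-depth libraries (-0.39 ± 0.09, adjusted p = 0.012). These are near copies too, so reads may be shared between them.

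Heparin cofactor II (serpind1), an inhibitor of thrombin, had 15.1, 13.1, 11.5, 13.1 and 13.04 CPM in D3 libraries, against 17.1, 23.4, 22.6, 20.4 and 20.6 CPM in vehicle libraries at 6 dpf. The D3 libraries were tightly grouped below all of vehicle, at -0.65 ± 0.10 (SE), adjusted p = 0.0014 (edgeR), and the fold change at 7 dpf was -0.46 ± 0.11 (SE), adjusted p = 0.01. Antithrombin (serpinc1), the main brake on thrombin in plasma, did not pass at 6 dpf (-0.46 ± 0.15 on the log2 scale) and fell at 7 dpf, at -0.68 ± 0.12. It passed at 6 dpf too without the lowest-depth libraries, at -0.59 ± 0.16 (SE), adjusted p = 0.022 (edgeR). Among the intracellular class, serpinb1l3 had 115, 106, 127, 128 and 106 CPM in D3 libraries, against 136, 192, 193, 192 and 221 CPM in vehicle libraries at 6 dpf and 106, 106, 109, 118 and 147 CPM in D3 libraries, against 166, 203, 204, 218 and 202 CPM in vehicle libraries at 7 dpf. Vehicle replicate 1 was the lowest vehicle library at both ages and still exceeded all D3 libraries. The edgeR log2 fold changes of serpinb1l3 were -0.67 ± 0.12 (SE), adjusted p = 0.0038, at 6 dpf and -0.75 ± 0.11 (SE), adjusted p = 0.0005, at 7 dpf.

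The gene serpine2, whose product inhibits thrombin at cell surfaces, fell at both ages, with log2 fold changes of -0.34 ± 0.07 at 6 dpf and -0.57 ± 0.14 at 7 dpf (SE). The thyroxine-binding globulin relative serpina7 and the serpinb genes serpinb1l1 and serpinb1l2 passed at neither age.

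Of the receptor and junction pair, f2r, the thrombin receptor, had 2.62, 3.99, 4.06, 4.60 and 2.34 CPM in D3 libraries, against 2.41, 1.47, 1.85, 1.91 and 1.85 CPM in vehicle libraries at 7 dpf. Only the lowest-depth libraries met, D3 replicate 5 lying below vehicle replicate 1, and f2r rose by 0.91 ± 0.20 (SE), adjusted p = 0.0066 (edgeR). Junction molecule f11r had 33.4, 30.6, 28.9, 27.5 and 28.5 CPM in D3 libraries, against 38.3, 27.2, 24.1, 26.5 and 24.7 CPM in vehicle libraries, overlapping, and did not pass at 7 dpf (0.09 ± 0.13 (SE), adjusted p = 0.63), nor at 6 dpf (0.08 ± 0.08). Without the lowest-depth libraries f11r rose at 7 dpf by 0.24 ± 0.07 (SE), adjusted p = 0.013 by edgeR.

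Pairs of related genes were also compared within each library, which removes library size. The measure was the log2 ratio of 1 member's counts to the other's, for 7 pairs at 4 ages, tested by a two-sided exact permutation test of D3 against vehicle with Benjamini-Hochberg adjustment over the 28 tests; 5 libraries against 5 allow no p under 0.00794. The log2 ratio of c3b to c3c was -1.93 ± 0.59 in D3 and -0.41 ± 0.30 in vehicle larvae at 6 dpf (SD, n = 5 each), a difference of -1.52 with adjusted p = 0.028 by the exact permutation test. It differed already at 4 dpf, by -0.57, where D3 averaged -0.18 ± 0.32 and vehicle 0.39 ± 0.13, and at 7 dpf by -0.81, each with adjusted p = 0.028 (exact). Neither gene passed the test across genes at 4 dpf. That test was adjusted over 13410 genes and the ratios over 28 tests, so passing one and not the other cannot be compared. The pairs were picked among members chosen with earlier results of these data known. The adjustment over 28 tests does not allow for that choice.

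The log2 ratio of f7i to f7 differed between D3 and vehicle by -1.18 at 6 dpf (adjusted p = 0.049, exact permutation) and by -1.40 at 7 dpf (adjusted p = 0.028, exact), with -3.05 ± 0.16 in D3 and -1.66 ± 0.17 in vehicle larvae at 7 dpf. That of serpina1 to serpina1l differed by -0.56 at 6 dpf and -0.48 at 7 dpf, and that of vtna to vtnb by 0.90 and 1.15, all with adjusted p = 0.028 (exact permutation). For vtna and vtnb the D3 libraries ran from 0.62 to 1.09 and the vehicle libraries from -0.51 to -0.06 at 7 dpf. The differences in the ratios of the fibrinogen chains were smaller. Over fga to fgg, fgb to fgg and fga to fgb, they lay between -0.07 and 0.23 on the log2 scale at the 4 ages. None passed with all libraries. The nearest was fga to fgg at 7 dpf, with 0.19 ± 0.19 in D3 and -0.04 ± 0.06 in vehicle larvae (adjusted p = 0.089, exact permutation). Without the lowest-depth libraries the 7 dpf differences were 0.28 for fga to fgg and 0.20 for fgb to fgg. Both then had adjusted p = 0.073 (exact permutation), as did the c3b, f7i, serpina1 and vtna ratios at that age. So these fibrinogen ratios are not shown to hold at 7 dpf.

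**Figure D4:**
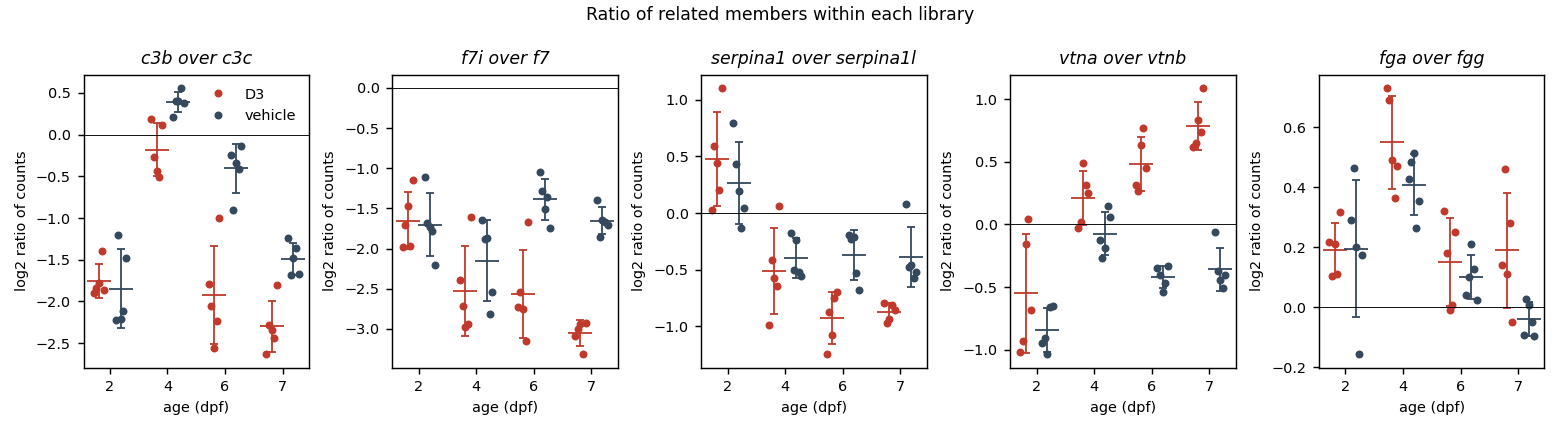
Log2 ratio of the counts of related members within each library (y axis; no length correction) by age in dpf (x axis), D3 red and left, vehicle blue and right, bars the mean and SD. At 7 dpf D3 and vehicle points are separate for c3b over c3c, f7i over f7, serpina1 over serpina1l and vtna over vtnb, and mixed for fga over fgg.

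At the younger ages little passed. At 2 dpf 0 of the 47 members tested were called (0.00757% of all genes were), also with 0 at an unadjusted p under 0.05 by edgeR (0.833% of genes) and 0 by DESeq2; cfhl3, f9 and serpina7 had too few counts there. At 4 dpf 0 of 50 were called, where 0% of all genes were. At an unadjusted p under 0.05 there were 8 members at 4 dpf (ahsg, tfa, f10, f7i, c3b, cfhl1, cfhl2 and serpina1), all lower in D3, where 6.89% of all genes were under it. DESeq2 called 2, cfhl1 and tfa, where it called 0.768% of all genes. All D3 libraries lay below all vehicle libraries for 2 members, tfa and f10, where 0.932% of all genes did so. The deposited exon table numbers the D3 libraries differently from the gene table, and at 4 dpf libraries that share a number there deviated together, with correlations of 0.35 to 0.68. With those numbers as a replicate block 7 members were called at 4 dpf, where 9.36% of all genes were called. Of these, 6 were lower (ahsg, cfhl1, f10, serpind1, tfa and the scaffold copy of serpini1) and 1 was higher (serpina7).

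At 4 dpf the members with the smallest adjusted p were tfa and cfhl1. At that age tfa had 618, 587, 432, 535 and 522 CPM in D3 libraries, against 621, 1202, 990.4, 1039 and 873 CPM in vehicle libraries. The groups did not overlap, vehicle replicate 1, the lowest-depth library, lying just above the D3 range, and the log2 fold change was -0.80 ± 0.16 (SE), adjusted p = 0.21 (edgeR), or -0.91 ± 0.13 (SE) with adjusted p = 0.046 without the lowest-depth libraries. Likewise cfhl1 had 1.15, 0.832, 1.04, 0.533 and 1.11 CPM in D3 libraries, against 1.15, 2.02, 1.80, 2.66 and 2.37 CPM in vehicle libraries, at -1.10 ± 0.26 (SE), adjusted p = 0.31. Values of ahsg were 1.19, 0.974, 1.59, 0.668 and 0.427 CPM in D3 libraries, against 0.816, 2.41, 1.80, 1.64 and 1.70 CPM in vehicle libraries, overlapping through the same vehicle library, at -0.78 ± 0.34 (SE), adjusted p = 0.7 (edgeR). With the exon table's numbers as a replicate block tfa, cfhl1 and ahsg all passed, ahsg with adjusted p = 0.022 (edgeR).

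Whether the response differed between ages was tested by the interaction over all 40 libraries. Between 6 and 4 dpf 0 members passed (0.154% of 13650 genes did), with 15 at an unadjusted p under 0.05 by edgeR (6.86% of genes). The closest were ahsg, whose response differed by -1.61 ± 0.38 on the log2 scale (adjusted p = 0.069), and c3b, at -1.59 ± 0.38 (adjusted p = 0.070, edgeR). Without the lowest-depth libraries 8 members passed (ahsg, ambpl, c3b, c9, cfhl2, cp, f7i and tfa), where 3.28% of all genes passed. In all 8 the log2 fold change of D3 over vehicle was more negative at 6 than at 4 dpf. Between 7 and 6 dpf 0 members passed (0.249% of genes did), with 6 at an unadjusted p under 0.05 (6.41% of genes). Without the lowest-depth libraries 2 did, among them ambpl, whose response differed by -0.58 ± 0.14 (SE, log2, 7 minus 6 dpf), where 4.11% of all genes passed.

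The course in vehicle animals gives the setting of these changes. From 2 to 4 dpf 41 of the 50 members rose and 0 fell, where 32.1% of all genes rose and 30.2% fell. The members' median log2 change was 1.07. DESeq2 gave the same member counts and called 64.6% of all genes. At an unadjusted p under 0.05 by edgeR there were 41 members and 8796 of the 13379 genes. The c3b gene had 24.0, 66.1, 56.2, 65.2 and 48.3 CPM at 4 dpf, against 1.01, 1.06, 1.65, 1.58 and 2.04 CPM at 2 dpf, without overlap, at 5.13 ± 0.31 (SE), adjusted p = 4.6e-08 (edgeR). Already present at 2 dpf, c6 averaged 9.97 ± 0.946 CPM at 4 dpf and 10.8 ± 2.00 CPM at 2 dpf (SD, n = 5 each) and did not pass.

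From 4 to 6 dpf 19 members rose and 2 fell (vtna and serpinf1), where 18.1% of all genes rose and 17.8% fell. Of the members, 20 rose and 7 fell without the lowest-depth libraries, where 44.7% of all genes were called. Among the members ahsg changed most in this interval: vehicle libraries held 22.6, 31.8, 24.9, 28.9 and 28.5 CPM at 6 dpf, against 0.816, 2.41, 1.80, 1.64 and 1.70 CPM at 4 dpf. None of these overlapped, and the change was 4.01 ± 0.23 (SE), adjusted p = 2.3e-06 on the log2 scale (edgeR), where the median member changed by 0.27. In the same interval c3c changed by 1.499 ± 0.21 and f7i by 1.13 ± 0.16 on the log2 scale (SE), both past the test, and tfa by 0.12 ± 0.19, which did not pass.

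Few members passed between 6 and 7 dpf. In vehicle larvae 7 members fell (hpx, tfa, vtnb, c3b, c9, cfhl2 and serpinf1) and 1 rose (kng1), where 4.92% of all genes fell and 7.1% rose, with a median of -0.12. Vehicle libraries deviate together by number between these ages, with correlations of 0.21 to 0.56, and with the number as a replicate block 22 members passed, 17 lower and 5 higher (32.7% of all genes). In the setting without the lowest-depth libraries 17 passed (26.9% of all genes). The tfa values were 865, 347, 358, 394 and 356 CPM at 7 dpf, against 1417, 722, 1039, 979.6 and 986 CPM at 6 dpf, at -1.12 ± 0.27 (SE), adjusted p = 0.021 (edgeR); the overlap came from the lowest-depth library at 7 dpf alone. The comparison shares its vehicle libraries with the D3 comparisons at both ages. In D3 larvae ahsg averaged 5.15 ± 0.895 CPM at 7 dpf and 5.22 ± 2.17 CPM at 6 dpf, where vehicle larvae had 32.0 ± 2.28 CPM at 7 dpf and 27.3 ± 3.61 CPM at 6 dpf (SD, n = 5 each).

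**Figure D5:**
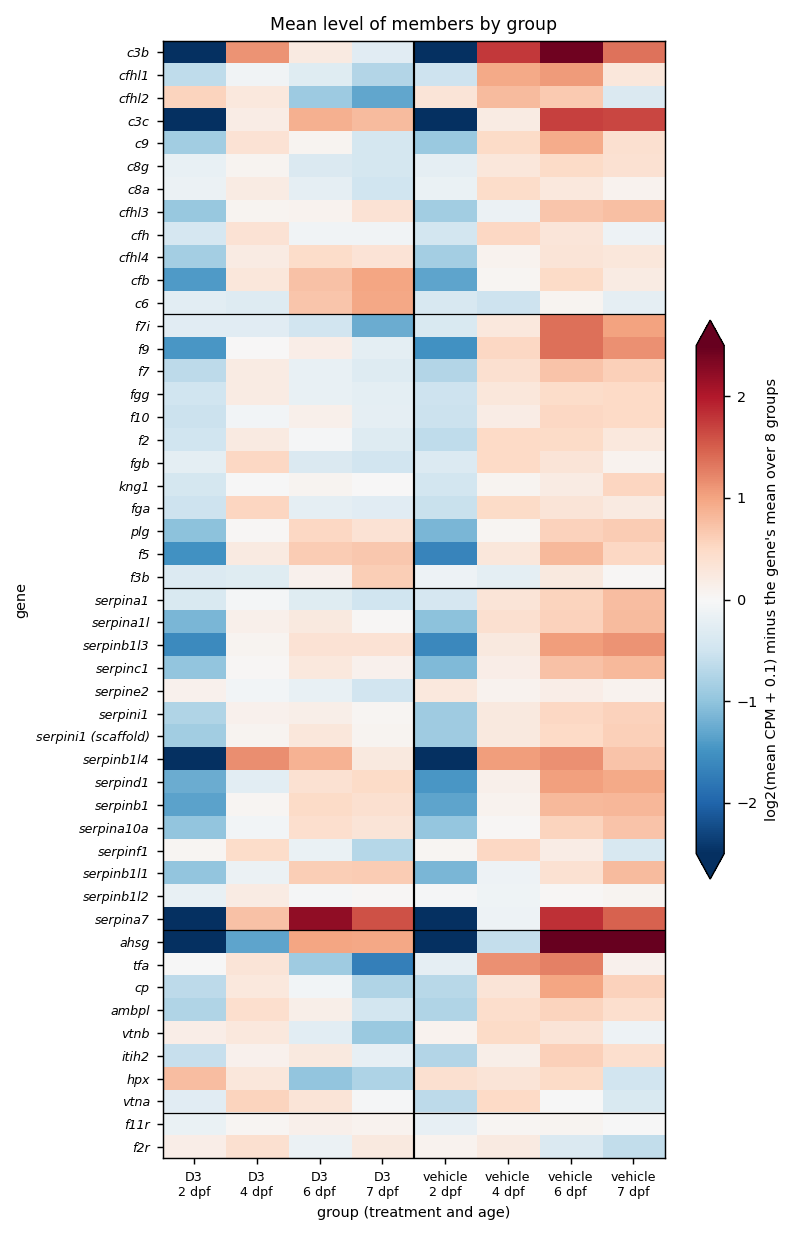
Mean level of 49 members (rows, grouped by role) in the 4 D3 and the 4 vehicle groups (columns), as log2(mean CPM + 0.1) minus the gene's own mean over the 8 groups, blue low and red high. Most rows are bluest at 2 dpf in both arms; at 6 and 7 dpf rows such as c3b, f7i, ahsg and tfa are paler or bluer in D3 than in vehicle, and c6 and cfb are redder.

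Genes outside the symbol pattern were described from lists of related genes. Of all genes tested, 6.32% fell and 4.37% rose at 6 dpf, and 14.2% fell and 14.6% rose at 7 dpf. A list of other genes taken as liver-secreted had 15 in the table. In vehicle animals it summed to 6388 ± 1206 CPM at 2 dpf and 4949 ± 165 CPM at 7 dpf (SD, n = 5 each). The hepatocyte markers described below summed to 23.6 ± 1.70 and 657 ± 60.8 CPM there. The tissue that these transcripts came from was not tested. Of the 15 genes, 2 rose and 5 fell at 6 dpf and 2 rose and 7 fell at 7 dpf, with a median log2 fold change of -0.52 at 7 dpf. They included gc, the vitamin D binding protein, at -2.01 ± 0.25 (SE), apoa1, the main protein of high-density lipoprotein, at -1.32 ± 0.21, and a2ml, an alpha-2-macroglobulin relative, at -1.16 ± 0.13, while agt, the angiotensin precursor, rose by 0.75 ± 0.10. Of 10 other complement and clotting genes, 2 fell and 1 rose at 7 dpf, with a median log2 fold change of -0.03. Those that fell were proc, the anticoagulant protein C, at -1.09 ± 0.12, and masp2, a lectin pathway protease, at -0.58 ± 0.12. The gene that rose was clu (clusterin), by 0.62 ± 0.09. The summed level of this list at 7 dpf averaged 271 ± 22.3 CPM in D3 and 245 ± 21.1 CPM in vehicle larvae (SD, n = 5 each). Of 20 hepatocyte transcription factors tested, 1 rose (cebpg) and 5 fell at 7 dpf, with a median log2 fold change of -0.11. Those that fell included hnf4a at -0.67 ± 0.18 and pparaa at -1.21 ± 0.06. The summed level of the 21 in the gene table averaged 1524 ± 188 CPM in D3 and 1246 ± 220 CPM in vehicle larvae at 7 dpf (SD, n = 5 each). Among 5 genes of the vitamin K cycle and its targets, ggcx, the enzyme that carboxylates clotting factors, fell at 6 dpf, at -0.29 ± 0.08, and did not pass at 7 dpf, and mgp, the matrix Gla protein, rose at both ages.

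Some markers of cell types moved alongside the members, and the same shares of all genes apply to their counts. Of 7 hepatocyte markers in the table, 6 fell at 6 dpf, and 6 fell and 1 rose (cpox) at 7 dpf. Their summed level ran from 129 to 256 CPM in D3 and from 581 to 710 CPM in vehicle larvae at 7 dpf, and fabp10a, the liver fatty acid binding protein, averaged 72.6 CPM in D3 and 451 CPM in vehicle. At 6 dpf the sum ran from 167 to 411 CPM in D3 and from 601 to 741 CPM in vehicle larvae. Of 6 intestine markers 5 fell at both ages, and their sum ran from 229 to 287 CPM in D3 and from 566 to 869 CPM in vehicle larvae at 7 dpf. Of 9 exocrine pancreas markers 6 fell and 1 rose at 6 dpf and 8 fell at 7 dpf, when their sum ran from 6399 to 10179.8 CPM in D3 and from 20585 to 26287 CPM in vehicle. Endothelial markers went the other way, with 4 of 4 higher at 7 dpf and a sum of 53.9 to 82.6 CPM in D3 and 47.3 to 53.7 CPM in vehicle larvae. None of 7 macrophage and neutrophil markers passed at 6 or 7 dpf by edgeR, with 0 at 6 dpf and 2 at 7 dpf at an unadjusted p under 0.05, and their sum ran from 104 to 232 CPM in D3 and from 103 to 216 CPM in vehicle larvae at 7 dpf. Of 3 thrombocyte markers 1 rose at 7 dpf (gp1bb), and their sum ran from 5.00 to 8.37 CPM in D3 and from 5.27 to 6.24 CPM in vehicle. Of 3 genes listed as yolk syncytial layer markers 2 were tested at 7 dpf and 1, gata3, rose. The 3 summed to 189 to 218 CPM in D3 and 148 to 175 CPM in vehicle. In vehicle animals that sum averaged 174 ± 26.4 CPM at 2 dpf and 164 ± 10.1 CPM at 7 dpf (SD, n = 5 each). Whether it reports on that layer at 7 dpf was not tested. The part of these cell types in the members' changes was not tested.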

How the data were processed

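Total RNA of pooled whole zebrafish was sequenced in 40 libraries. The authors deposited a table of whole-number read counts per gene and one of counts per exon; CASAVA 1.4 and HTSeq 0.5.3p3 are named per the submitters' processing notes, while aligner settings, strand and annotation are not given in the sources used here. Coordinates come from the exon table, in which 43 members have named exons. All 50 member symbols were found in the reference gene tables, in part as synonyms; those tables (another assembly) were used for names and neighbours only.

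From the counts, edgeR 4.0.16 in R 4.3.3 was run across all genes (filterByExpr, TMM factors, robust dispersion, quasi-likelihood F test, Benjamini-Hochberg adjustment, threshold 0.05), with only the groups compared in each fit and all 40 libraries in the test of differences between ages; the steps were tested on simulated data. SE is the log2 fold change divided by the root of F. Alternatives were other size factors, no filter (minimum count 1), DESeq2 1.42.0, 1 fit of all libraries, a replicate block, no lowest-depth libraries and leaving out each library. Exact permutation tests used scipy 1.17.1.

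Members named with values in each library were, at 6 and 7 dpf, up to 3 of each role and direction by smallest adjusted p, the 2 most counted of each role, members that rose and members called at 2 or 4 dpf, 28 in all, of which 1 is not reported here; any other gene named was picked with its values in view. The members and lists were chosen with earlier results of these data known, and the pairs for the ratios were picked among these members. Replicate numbers in the labels paired D3 with vehicle at no age (some correlations of deviations were below 0.1). The exon table's numbers paired them at 2 and 4 dpf, and the labels' numbers paired vehicle groups between 2 and 4 and between 6 and 7 dpf, where every correlation exceeded 0.1. No sequences are shown because none were at hand.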

Additional observations from a re-analysis of the deposited data

Results flagged for a closer look

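In groups of 5, a library far from the other 4 was marked where its gap to the nearest value was a large share of the group's range. Of 256 groups of values 27 were marked, and 20 of the 27 were in the lowest-depth library of their group. The rule is meant to mark about 1 in 20 by chance. The groups are not independent, since class sums and their own members were both included and the same libraries recur. The 27 can therefore not be set against that rate. All values here are CPM.

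At 7 dpf vehicle replicate 1, a lowest-depth library, stood above the other vehicle libraries for the summed complement genes (481), the summed carriers (1364), tfa (865), c3b (59.0), c3c (139), cfhl1 (1.84), cfhl2 (3.12), cfhl4 (71.0) and f11r (38.3), and below them for f9 (0.409). At the same age D3 replicate 5, also of lowest depth, stood above the other D3 libraries for the summed carriers (567), hpx (1.41), cfhl4 (96.1) and serpinb1l3 (147).

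At 6 dpf D3 replicate 5 was high for ahsg (8.995) and f7i (7.18) and low for c6 (12.0), and vehicle replicate 1 was high for vtnb (48.6). At 4 dpf D3 replicate 5 was low for the summed serpins (546) and kng1 (27.8), and D3 replicate 1 was high for hpx (3.97) and serpind1 (10.96).

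At 2 dpf vehicle replicate 2 was low for the summed complement genes (75.3) and the summed clotting genes (267), D3 replicate 1 was high for the summed clotting genes (473) and cfb (18.1), and D3 replicate 3 was high for hpx (4.15). None of these last 5 was in a lowest-depth library.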

How the results depend on the processing

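Counts of members called at 2 dpf (0) and between 2 and 4 dpf in vehicle animals were within 1.5 times the reported count in all alternatives. At 4 dpf, against 0, DESeq2 called 2, the replicate block taken from exon-table numbering 7, and the setting without the lowest-depth libraries 1, with 0 to 1 when single libraries were left out. The shares of all genes called in these settings were 0.768%, 9.36%, 0.134% and 0 to 0.067%, against 0%. At 6 dpf, against 20, that block gave 32 and the setting without the lowest-depth libraries 34, with 15 to 30 when single libraries were left out. The shares of all genes moved too, to 25.6%, 26.1% and 6.28 to 17.1%, against 10.7%. At 7 dpf, against 39, all alternatives stayed within 34 to 43, where 18.7 to 56.6% of all genes were called, against 28.8%. For the difference between 6 and 4 dpf, against 0, both settings gave 8, where 4.15% (that block) and 3.28% of all genes passed. The lowest-depth libraries of both arms share number 1 in the exon table at every age, so these settings are not independent of each other. Between 7 and 6 dpf leaving out the lowest-depth libraries gave 2 (4.11% of all genes). In vehicle larvae at 6 against 4 dpf, against 21 (19 higher, 2 lower), alternatives gave 16 to 27, with 20 higher and 7 lower without the lowest-depth libraries. They called 28.3 to 47.4% of all genes, against 35.9%. In vehicle larvae at 7 against 6 dpf, against 8, the replicate block gave 22, the setting without the lowest-depth libraries 17, and leaving out single libraries 4 to 15. Shares of all genes there were 32.7%, 26.9% and 6.88 to 19.9%, against 12.0%. The block by the labels' numbers gave 18 at 6 dpf (6.82% of all genes) and 34 at 7 dpf (18.7%), where those numbers pair nothing. By the exon table's numbers not every pair correlated above 0.1 at 6 or 7 dpf.

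For the 28 members named by rule, 1830 of the recomputed fold changes kept their side of the threshold. A further 40 passed where the reported one did not, and 17 no longer passed. None reversed where the reported or the recomputed value passed. Values that passed in neither could change sign, as for hpx at 4 dpf, which ran from -0.76 to 0.20 on the log2 scale. Alternatives for the ratios were chosen after seeing the data. The 9 that passed kept their sign in 11 settings each and passed in 2 or 3 of them, with adjusted p between 0.044 and 0.099 by exact permutation. Among the fibrinogen ratios, fga to fgg and fgb to fgg at 7 dpf each passed in 1 of the 11 settings. Fewer libraries raise the smallest p possible. The ratio of f7i to f7 at 6 dpf was above that smallest p even with all libraries (unadjusted p = 0.016, exact permutation). Low counts left cfhl3, f9 and serpina7 untested at 2 dpf.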
